A study of Mus musculus with 8 samples.

Results

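The insulin receptor, phosphoinositide 3-kinase (PI3K) and AKT signalling genes are 36 genes chosen by symbol, from the receptor down to AKT, mTOR and AMPK. In the platform annotation of a mouse Illumina bead array, 35 of them had a named probe and are described here among the 20289 genes measured. Rps6kb1, which encodes the S6 kinase of the mTOR branch, is not analysed here. Each gene stands for its probe with the highest mean level over the arrays.

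The arrays measured total RNA of primary hepatocytes, liver parenchymal cells isolated and cultured, from male C57Bl/6 mice. Chow arrays carried the numbers 1, 2, 3 and 5, and arrays of the high fat diet (HFD) 8, 10, 11 and 12, so n = 4 arrays per diet. All 8 cultures had the same hormones. Plating was in 10% serum with insulin at 100 nM, EGF at 1.5 nM and dexamethasone at 400 nM; after 4 h insulin was set to 10 nM, and the RNA was taken 24 h later. No culture without insulin is compared here, so the values are transcript levels under insulin and not responses to it. How long the mice were fed and whether each array held 1 mouse is not given here, so a p-value measures the spread between these arrays.

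Insulin binds a receptor tyrosine kinase that phosphorylates the docking proteins IRS1 and IRS2, which recruit PI3K. The lipid that PI3K makes brings the kinases PDK1 and AKT to the membrane, and AKT then restrains GSK3, the FOXO transcription factors and the TSC complex, which holds back mTOR. In the liver this route promotes glycogen and lipid synthesis and lowers glucose output. Much of its control lies in phosphorylation, which a transcript array does not see.

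Chow array 3 differed from the rest: its correlation with them over all probes was 0.946 to 0.952, while that among the other 7 arrays was 0.989 or more. Among the chow arrays it was the one farthest from the others in 19 of the 35 members, and in 48.4% of all genes. Each result is therefore also given without it where that changes a call or a direction. The scale is the deposited log2 level, with a median of 7.51 over all probes. A gene is called near background where both diet means lie below that median plus 0.5 (8.01 when rounded), because differences there understate changes in RNA.

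The preparation also held RNA of other liver cells, in unequal amounts. Of 14 markers of macrophages and Kupffer cells, HFD cultures were lower in 8 and higher in 0, and lower in 11 without chow array 3. Their mean level per array ran from 8.844 to 9.119 in chow and from 8.037 to 8.32 in HFD cultures, with Clec4f and Ctss near background. Of 9 sinusoidal endothelial markers, 4 fell and 0 rose, or 7 fell and 1 rose without chow array 3. Their mean ran from 8.148 to 8.287 in chow and from 7.739 to 7.817 in HFD cultures, with Pecam1, Kdr and Tek near background. The 10 hepatocyte markers had a mean of 10.856 to 11.09 in chow and 10.857 to 11.02 in HFD cultures. Cps1, an enzyme of the urea cycle, was the only one of them that passed the test, higher in HFD cultures, and Tat and Fgb were near background. All 9 stellate cell markers and all 5 measured lymphoid markers were near background, as were 3 of the 5 measured bile duct markers; of that list, Cldn4 rose. In such mixed RNA, fewer cells of a type and less RNA per cell cannot be told apart. The part of these cells in the results below was not tested.

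Of the 35 measured members, 3 passed the test between the diets, an adjusted p under 0.05 from limma over all genes. Grb10 and Grb7, adaptors of one family, were higher in HFD hepatocytes, and Gsk3b, a kinase restrained by AKT, was lower. That is 8.57% of the members, where 4.04% of all genes passed, 1.47% higher and 2.57% lower. Most genes that passed lay above background, however: of the members not near background 3 of 23 (13%) passed, against 10.1% of the 7326 such genes in all. The share of members is thus close to the share of comparably bright genes. Without chow array 3 the same 3 members passed, again 8.57%, and the background rose to 9.17%. Leaving out chow array 2 or HFD array 12 left 1 member, Grb10, where 2.75% and 2.2% of all genes passed, and leaving out HFD array 10 left 0, where 2.25% passed.

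The remaining 32 members did not pass. At an unadjusted p under 0.05 there were 5 members in all, the other two being Pik3r1 and Foxo1, while 14.1% of all genes reached that level. The HFD and chow arrays did not overlap in 3 members (8.57%), the ones that passed, and in 10.7% of all genes. The differences (HFD minus chow) had a median of 0.01 over the members and -0.0046 over all genes, with 20 members above 0 and 15 below. In 23 members the difference was smaller than 0.1 in size.

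A gene that misses the threshold is not shown to be equal, so the intervals matter. For 30 of the 32 members that did not pass, the whole 95% confidence interval of the difference lay between -0.5 and 0.5 on the log2 scale. Excluding those near background, it was 18 of 20. The exceptions were Pik3r1 and Prkaa2. The margin of 0.5 is wider than the differences of Grb7 (0.435) and Gsk3b (-0.30), which passed. An interval inside it can thus still hold a change of that size, as for Foxo1 (0.06 to 0.47). The half-widths ran from 0.0766 to 0.387. The spread between arrays was larger in chow cultures for 25 members, with a median SD of 0.114 in chow and 0.082 in HFD cultures; without chow array 3 the chow median was 0.077.

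**Figure D1:**
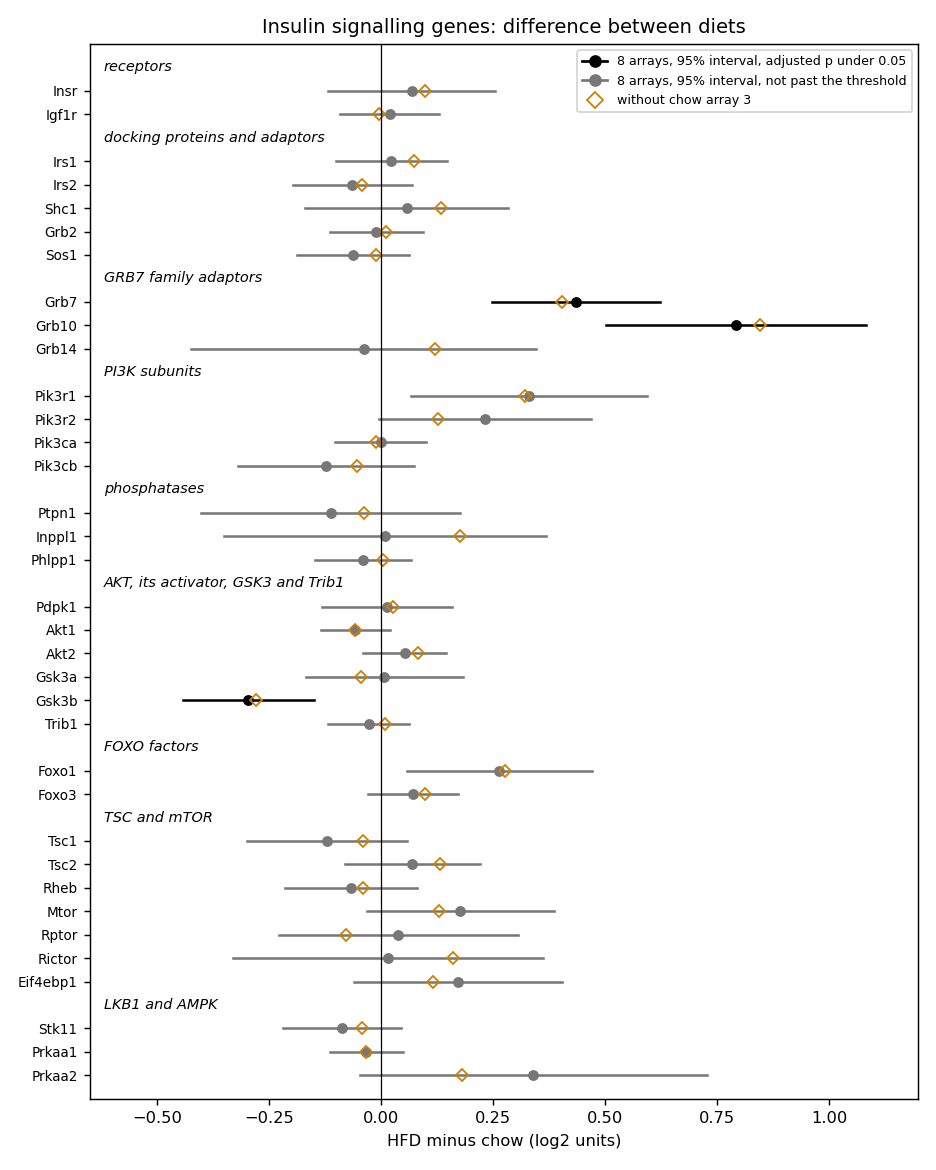
Difference in level between the diets (HFD minus chow, log2 units, horizontal axis) for the 35 measured members, grouped by role. Circles with bars are the estimate and its 95% confidence interval over 8 arrays, black where the adjusted p was under 0.05 and grey otherwise, and orange diamonds are the estimate without chow array 3. Grb10 and Grb7 lie to the right, Gsk3b to the left, and most other members within 0.1 of zero.

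Insr, the insulin receptor, was well above background and did not pass. Its level was 10.04, 10.18, 10.20 and 10.03 on chow arrays 1, 2, 3 and 5, and 10.33, 10.30, 10.06 and 10.04 on HFD arrays 8, 10, 11 and 12. The diets overlapped, with HFD arrays 8 and 10 above all chow arrays and HFD array 12 among the lowest. The difference was 0.07 (SE 0.081, 95% interval -0.12 to 0.26, adjusted p 0.822). A second bright probe of Insr gave a difference of -0.0047 (interval -0.22 to 0.21). Both bright probes are listed in the annotation under an older symbol of the gene, D630014A15Rik; the probes listed as Insr itself lay near background, with diet means of 7.57 and 7.58 for the brighter one.

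Igf1r encodes the related receptor for insulin-like growth factor 1, of which mature hepatocytes are known to have little. It was near background, at 7.60, 7.60, 7.52 and 7.62 in chow and 7.59, 7.61, 7.51 and 7.72 in HFD cultures. All 8 values lay within the range of dim probes and the diets overlapped (difference 0.02, SE 0.048, adjusted p 0.933). Its brightest probe is also listed under another name, D930020L01. The difference changed sign without chow array 3 (-0.0040) and on the brightest probe listed as Igf1r (-0.03).

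The docking proteins and adaptors next to the receptor held 0 members past the test, by limma at 0.05, and 0 at an unadjusted p under 0.05. Irs1 and Irs2, the main insulin receptor substrates of liver, are shown first because they share short promoter motifs. The RefSeq promoters (GRCm38.p6, 250 bases before the start, 5′ to 3′ on the gene's minus strand, chromosome 1 and chromosome 8) are printed with 2 motifs in capitals. These are CACGTG, the E-box of basic helix-loop-helix factors, and TGTTTTG, the core of the insulin response sequence bound by FOXO factors.
Irs1, chr1:82291440-82291689: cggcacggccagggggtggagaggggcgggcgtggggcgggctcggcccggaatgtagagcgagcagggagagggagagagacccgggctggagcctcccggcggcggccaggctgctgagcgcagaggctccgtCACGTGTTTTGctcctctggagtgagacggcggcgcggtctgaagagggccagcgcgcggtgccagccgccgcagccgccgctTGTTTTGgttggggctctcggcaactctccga
Irs2, chr8:11008930-11009179: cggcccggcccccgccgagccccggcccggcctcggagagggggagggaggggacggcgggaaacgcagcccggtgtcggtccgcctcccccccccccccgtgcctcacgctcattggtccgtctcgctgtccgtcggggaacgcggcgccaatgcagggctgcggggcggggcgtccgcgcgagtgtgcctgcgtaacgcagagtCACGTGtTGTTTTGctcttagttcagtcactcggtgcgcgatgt
In Irs1 the CACGTG match overlaps the first TGTTTTG match and a second TGTTTTG follows, and in Irs2 the motifs stand next to each other. Both strands were searched from 250 bases before to 50 after the start. Counted by gene, TGTTTTG occurs in a promoter of 7.2% of the 27025 genes in the table (6.28% of 32851 promoters) and in 2 of the 31 members matched there (6.45%), Irs1 and Irs2. CACGTG occurs in 8.09% of genes (7.15% of promoters) and in 3 members (9.68%), Irs1, Irs2 and Rheb. GTAAACA, the FOXO core, occurs in 4.05% of genes (3.65% of promoters) and in 2 members (6.45%), Akt1 and Stk11. These matches are letters in a window and not sites.

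Irs2, which fasting raises in mouse liver and insulin lowers, was just above background. Its level was 8.11, 8.21, 8.25 and 8.18 in chow and 8.02, 8.24, 8.05 and 8.18 in HFD cultures. HFD arrays 8 and 11 lay below all chow arrays and the other two within them. The difference was -0.06 (SE 0.058, 95% interval -0.20 to 0.07, adjusted p 0.744). Irs1 was near background, with a difference of 0.02 (interval -0.10 to 0.15, adjusted p 0.928).

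Shc1, Grb2 and Sos1 lead from the receptor to RAS and the MAP kinases. Sos1, the exchange factor that activates RAS, was near background, at 7.55, 7.58, 7.79 and 7.65 in chow and 7.56, 7.55, 7.60 and 7.62 in HFD cultures. Its diets overlapped, with chow array 3 the highest of the 8 (difference -0.06, SE 0.054, adjusted p 0.731). Grb2, which links Sos1 to phosphorylated receptors, was near background too (difference -0.01, adjusted p 0.964, and 0.01 without chow array 3). Shc1, an adaptor of the same branch, was bright, between 11.75 and 12.20 on the 8 arrays, and differed by 0.06 (interval -0.17 to 0.28, adjusted p 0.895).

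The GRB7 family held 2 of the 3 members that passed. GRB7, GRB10 and GRB14 are adaptors with an SH2 domain; GRB10 and GRB14 bind the active insulin receptor and are known to inhibit it, and Grb10 is an imprinted gene in the mouse. Grb10 had the largest difference of all 35 members. Its level was 9.01, 8.89, 9.28 and 9.30 on the chow arrays and 10.17, 9.96, 9.69 and 9.83 on the HFD arrays. The lowest HFD array, number 11, lay above the highest chow array. The mean was 9.12 ± 0.20 in chow and 9.91 ± 0.20 in HFD cultures (SD, n = 4 each). The difference was 0.79 (SE 0.126, 95% interval 0.50 to 1.08, adjusted p 0.0131), a ratio of 1.73-fold if the scale is a plain log2. It was 0.85 without chow array 3 (adjusted p 0.00398). The call was lost only without HFD array 10 (difference 0.78, adjusted p 0.0518). The other probes of Grb10 were near background, with differences of 0.12 and 0.0019.

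Grb7, known from its amplification beside ERBB2 in human tumours, was the other member that rose. Its level was 9.04, 9.23, 9.09 and 9.38 in chow and 9.51, 9.57, 9.71 and 9.68 in HFD cultures. All HFD arrays lay above all chow arrays, the nearest being chow array 5 and HFD array 8. The mean went from 9.18 ± 0.15 to 9.62 ± 0.10, a difference of 0.43 (SE 0.081, 95% interval 0.25 to 0.62, adjusted p 0.0254), or 1.35-fold. The call was lost when chow array 1 or 2, or HFD array 10, 11 or 12 was left out, with differences of 0.39 to 0.45 and adjusted p of 0.0601 to 0.0892. It held without chow array 3 (0.40, adjusted p 0.0181). Grb7 has a single probe.

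Grb14, the third adaptor and one well expressed in liver, did not pass. Its level was 9.14, 9.33, 9.80 and 9.02 in chow and 9.48, 9.15, 9.35 and 9.16 in HFD cultures. The HFD arrays lay inside the chow range, which chow array 3 widened. The difference was -0.04 (SE 0.167, 95% interval -0.42 to 0.35, adjusted p 0.965) and turned to 0.12 without chow array 3. A second probe above background gave 0.23 (interval -0.03 to 0.48), so over the 8 arrays the probes of Grb14 disagree in sign. On that second probe chow array 3 was the highest chow array, at 8.61. The other chow arrays, at 8.15 to 8.26, lay below all HFD arrays, at 8.36 to 8.66.

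The promoters of Grb10 and Grb14 are shown because the paralogs differ in call; none of the 3 motifs above occurs in them. Grb10 has 2 starts in the table, and the array does not tell which was used. They are given as above, on the minus strand of chromosomes 11 and 2.
Grb10, chr11:12027972-12028221: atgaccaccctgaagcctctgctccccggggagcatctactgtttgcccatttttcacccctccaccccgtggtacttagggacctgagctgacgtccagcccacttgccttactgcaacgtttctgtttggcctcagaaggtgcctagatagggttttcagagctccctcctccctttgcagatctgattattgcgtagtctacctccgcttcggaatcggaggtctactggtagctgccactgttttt
Grb10, chr11:12037421-12037670: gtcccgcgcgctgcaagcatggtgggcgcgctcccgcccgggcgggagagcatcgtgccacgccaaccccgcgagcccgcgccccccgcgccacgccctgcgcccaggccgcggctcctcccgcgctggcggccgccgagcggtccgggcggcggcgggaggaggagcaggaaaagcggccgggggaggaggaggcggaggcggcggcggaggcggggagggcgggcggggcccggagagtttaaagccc
Grb14, chr2:65022767-65023016: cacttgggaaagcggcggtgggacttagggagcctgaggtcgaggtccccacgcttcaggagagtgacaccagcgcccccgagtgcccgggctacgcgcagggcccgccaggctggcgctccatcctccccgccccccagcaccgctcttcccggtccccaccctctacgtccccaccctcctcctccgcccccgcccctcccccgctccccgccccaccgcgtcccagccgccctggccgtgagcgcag
The first Grb10 sequence holds 8 CpG dinucleotides and 54.0% G and C, close to the median of all promoters, 6 CpG and 52.4%. The second holds 40 CpG and 81.2%, and that of Grb14 24 CpG and 75.2%. Those of Irs1 and Irs2 above hold 28 CpG with 72.4% and 34 CpG with 72.8%. Eif4ebp1, Grb7, Insr and Trib1 were not matched in the promoter table.

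Whether paralogs changed unequally was tested in itself, as the difference of their log2 levels on each array, by exact permutation (2-sided, 70 assignments) and adjusted over 13 pairs. Only the change of such a difference between the diets has a meaning, since levels of different probes are not comparable. Grb10 minus Grb14 was -0.13, -0.44, -0.52 and 0.28 in chow and 0.69, 0.81, 0.35 and 0.67 in HFD cultures. All HFD arrays lay above all chow arrays, though HFD array 11 was close to chow array 5. The shift was 0.83 (SE 0.207), with an exact p of 0.0286, the smallest this design allows, and 0.124 after adjustment. On the mean of each gene's probes, dim ones included, the shift of this pair was 0.28. Grb14 minus Grb7 shifted by -0.47 (exact p 0.0571, adjusted 0.148) and Grb10 minus Grb7 by 0.36 (exact p 0.114, adjusted 0.212). None of the 13 pairs passed 0.05 after adjustment, which no pair could do here unless most pairs reached the smallest p.

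**Figure D2:**
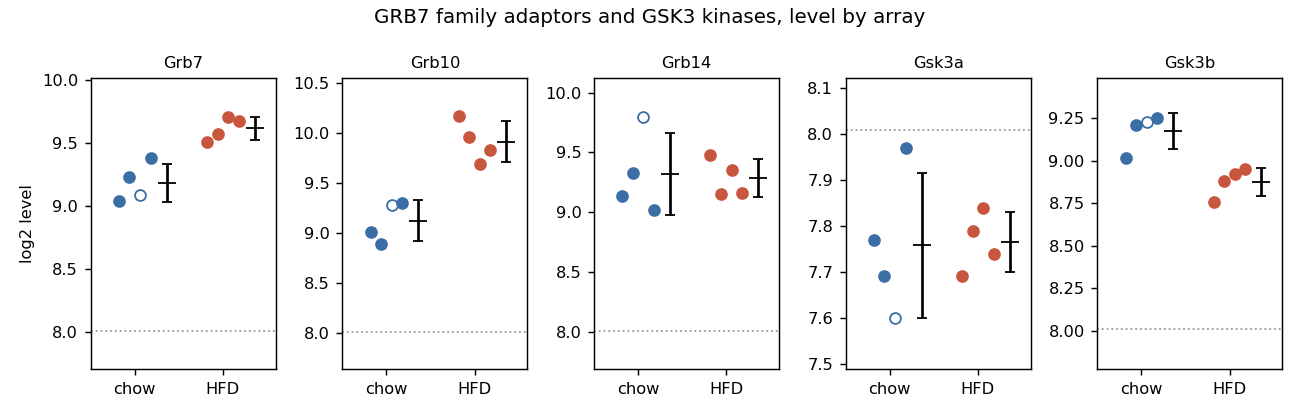
Log2 level on each array (vertical axis, a scale of its own in each panel) of the GRB7 family adaptors and the GSK3 kinases in chow (blue) and HFD (red) cultures. Points are arrays, the open circle is chow array 3, black bars are the mean ± SD of 4 arrays, and the dotted line is the near-background limit of 8.01. The diets are apart for Grb7, Grb10 and Gsk3b and overlap for Grb14 and Gsk3a, the latter below the limit.

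Among the PI3K subunits, 0 of 4 passed by limma and 1 reached an unadjusted p under 0.05. Pik3r1 encodes p85 alpha, the main regulatory subunit, which binds the IRS proteins. Its level was 9.77, 9.69, 9.66 and 9.59 in chow and 10.24, 10.14, 9.68 and 9.96 in HFD cultures. HFD arrays 8, 10 and 12 lay above all chow arrays and HFD array 11 within them. The difference was 0.33 (SE 0.114, 95% interval 0.07 to 0.59, adjusted p 0.213). It passed only without HFD array 11 (0.44, adjusted p 0.0349). On a second bright probe HFD array 11 was again the only HFD array within the chow range, and the difference was 0.38 (interval 0.10 to 0.66).

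Pik3r2, the p85 beta subunit, was near background at 7.80, 7.90, 7.41 and 7.79 in chow and 8.06, 7.93, 7.98 and 7.86 in HFD cultures. Chow array 3 was the lowest by far and HFD array 12 fell within the chow range. The difference was 0.23 (SE 0.102, adjusted p 0.369), and 0.13 without chow array 3. A second probe of Pik3r2, also near background, differed by -0.06 (interval -0.20 to 0.09). On it chow array 3 was the highest array, at 7.99, so the probes disagree on that array and in sign. Of the catalytic subunits, Pik3cb, p110 beta, was between 10.01 and 10.44 and differed by -0.12 (interval -0.32 to 0.07, adjusted p 0.642). Pik3ca, p110 alpha, which carries most of insulin's signal in liver, lay barely above the near-background limit and differed by -0.0008 (interval -0.10 to 0.10, adjusted p 0.998).

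The phosphatases that oppose the route also held 0 members past the test and 0 at an unadjusted p under 0.05. Ptpn1 encodes PTP1B, which dephosphorylates the insulin receptor. Its level was 8.95, 8.62, 8.97 and 8.46 in chow and 8.5, 8.62, 8.61 and 8.81 in HFD cultures. The HFD arrays lay inside the chow range (difference -0.11, SE 0.125, 95% interval -0.40 to 0.18, adjusted p 0.804). Phlpp1, a phosphatase of AKT, was near background at 7.60, 7.57, 7.77 and 7.61 in chow and 7.60, 7.58, 7.58 and 7.64 in HFD cultures. Chow array 3 alone stood out (difference -0.04, SE 0.046, adjusted p 0.805, and 0.0032 without that array). Inppl1 encodes SHIP2, which removes a phosphate from the PI3K product. It was 11.43 on chow array 3 and between 10.63 and 11.01 on the other 7 arrays. The difference was 0.0090 over 8 arrays (interval -0.35 to 0.37, adjusted p 0.994) and 0.18 without chow array 3 (adjusted p 0.130). The probes of Inppl1 disagree on that array: on a second bright probe chow array 3 was again the highest, at 11.25, and on a dimmer one the lowest, at 7.40 against 8.13 to 8.46 on the other arrays. The dimmer probe differed by 0.35 between the diets (interval -0.06 to 0.77).

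Of AKT, its activator PDK1, the GSK3 kinases and Trib1, 1 of 6 passed, and 4 were near background. Gsk3b encodes GSK3 beta, a kinase that inhibits glycogen synthase until AKT phosphorylates it. Its level was 9.02, 9.21, 9.23 and 9.25 in chow and 8.76, 8.88, 8.92 and 8.95 in HFD cultures. The highest HFD array, number 12, lay just below the lowest chow array, number 1. The mean fell from 9.18 ± 0.11 to 8.88 ± 0.08, a difference of -0.30 (SE 0.063, 95% interval -0.44 to -0.15, adjusted p 0.0420), or 1.23-fold chow over HFD. Of the 3 members that passed, Gsk3b was nearest to the threshold. The call was kept without chow array 3 (-0.28, adjusted p 0.0350) and lost without chow array 2 or 5, or any single HFD array, with differences of -0.26 to -0.32 and adjusted p of 0.0831 to 0.122. It was also lost with limma's trended and robust variance (adjusted p 0.14) and among genes above the upper quartile of all probes (0.0518).

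Gsk3a, the paralog of Gsk3b, was near background, with 7.77, 7.69, 7.60 and 7.97 in chow and 7.69, 7.79, 7.84 and 7.74 in HFD cultures. Its difference was 0.0071 (95% interval -0.17 to 0.18, adjusted p 0.988), and -0.04 without chow array 3. Gsk3a minus Gsk3b shifted by 0.30 between the diets without overlap (SE 0.098, exact permutation p 0.0286, adjusted over the 13 pairs 0.124). A dim probe understates a change, so this pair says little about Gsk3a.

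The transcripts of AKT itself were dim. Akt1 was at 7.59, 7.54, 7.59 and 7.64 in chow and 7.53, 7.48, 7.53 and 7.58 in HFD cultures (difference -0.06, interval -0.13 to 0.02, adjusted p 0.537). Akt2, the isoform on which hepatic insulin action mainly depends, had a difference of 0.05 (interval -0.04 to 0.15, adjusted p 0.686) near background. Neither can be read as a measured absence of change at this brightness. Pdpk1, which encodes PDK1, was above background, between 9.01 and 9.28 on the 8 arrays, and differed by 0.01 (interval -0.13 to 0.16, adjusted p 0.968). A second bright probe of Pdpk1 differed by -0.20 (interval -0.53 to 0.13). Trib1, a pseudokinase studied for its effect on hepatic lipid synthesis, was near background (difference -0.03, adjusted p 0.861, and 0.0079 without chow array 3).

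Foxo1, the factor that AKT keeps out of the nucleus and that drives gluconeogenic genes, was the other member with an unadjusted p under 0.05 that did not pass. Its level was 8.60, 8.85, 8.70 and 8.5 in chow and 8.73, 9.03, 8.99 and 8.96 in HFD cultures. HFD arrays 10, 11 and 12 lay above all chow arrays and HFD array 8 within them. The difference was 0.26 (SE 0.090, 95% interval 0.06 to 0.47, adjusted p 0.204). A second, dim probe of Foxo1 differed by -0.02. Foxo3, a factor of the same family, was near background at 7.64, 7.57, 7.67 and 7.49 in chow and 7.63, 7.68, 7.71 and 7.64 in HFD cultures. Its diets overlapped (difference 0.07, SE 0.044, adjusted p 0.575).

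Of the 7 measured TSC and mTOR genes, 0 passed by limma or reached an unadjusted p under 0.05. None was counted as near background, but Tsc1 lay at the limit. Its mean was 8.0087 in chow (7.9282 without chow array 3) and 7.8881 in HFD cultures, above the limit only before rounding. Mtor, the kinase of both mTOR complexes, was at 8.32, 8.59, 8.31 and 8.60 in chow and 8.71, 8.47, 8.73 and 8.62 in HFD cultures. HFD array 10 lay among the chow arrays and the other three above them (difference 0.18, SE 0.090, 95% interval -0.03 to 0.39, adjusted p 0.467). A second probe, listed under the older name Frap1, was 8.32, 8.29, 8.75 and 8.19 in chow and 8.01, 8.05, 8.18 and 8.02 in HFD cultures. It lay lower on all HFD arrays, by 0.32 on the log2 scale (interval of the difference -0.59 to -0.06). The probes of Mtor thus gave opposite signs, and no direction is given for the gene.

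Eif4ebp1 encodes 4E-BP1, a translation repressor that mTOR inactivates. It was at 14.02, 13.64, 13.55 and 13.64 in chow and 13.88, 14.00, 13.82 and 13.83 in HFD cultures. Chow array 1 was the highest of the 8 and the other chow arrays lay below all HFD arrays. The difference was 0.17 (SE 0.10, 95% interval -0.06 to 0.40, adjusted p 0.548), and without chow array 1 it was 0.27 and passed (adjusted p 0.0442).

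The subunits of the TSC complex and of the mTOR complexes did not pass. Tsc1 differed by -0.12 (interval -0.30 to 0.06, adjusted p 0.600) and Tsc2 by 0.07 (interval -0.08 to 0.22, adjusted p 0.758). Tsc1 minus Tsc2 was -2.89, -2.91, -2.79 and -2.80 in chow and -2.95, -3.08, -3.03 and -3.09 in HFD cultures. It shifted by -0.19 without overlap (SE 0.045, exact permutation p 0.0286, adjusted over the 13 pairs 0.124). Tsc1 was at the near-background limit, where a probe understates a change, so this pair says little about Tsc1. Rheb, the small GTPase that activates mTOR, was between 11.96 and 12.28 and differed by -0.07 (adjusted p 0.764). Rptor, the defining subunit of mTOR complex 1, differed by 0.04 (adjusted p 0.946) and Rictor, that of complex 2, by 0.02 (adjusted p 0.987). Chow array 3 was the lowest array for Rptor, at 9.41, and the highest for Rictor, at 10.04. Without it the differences were -0.08 and 0.16.

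**Figure D3:**
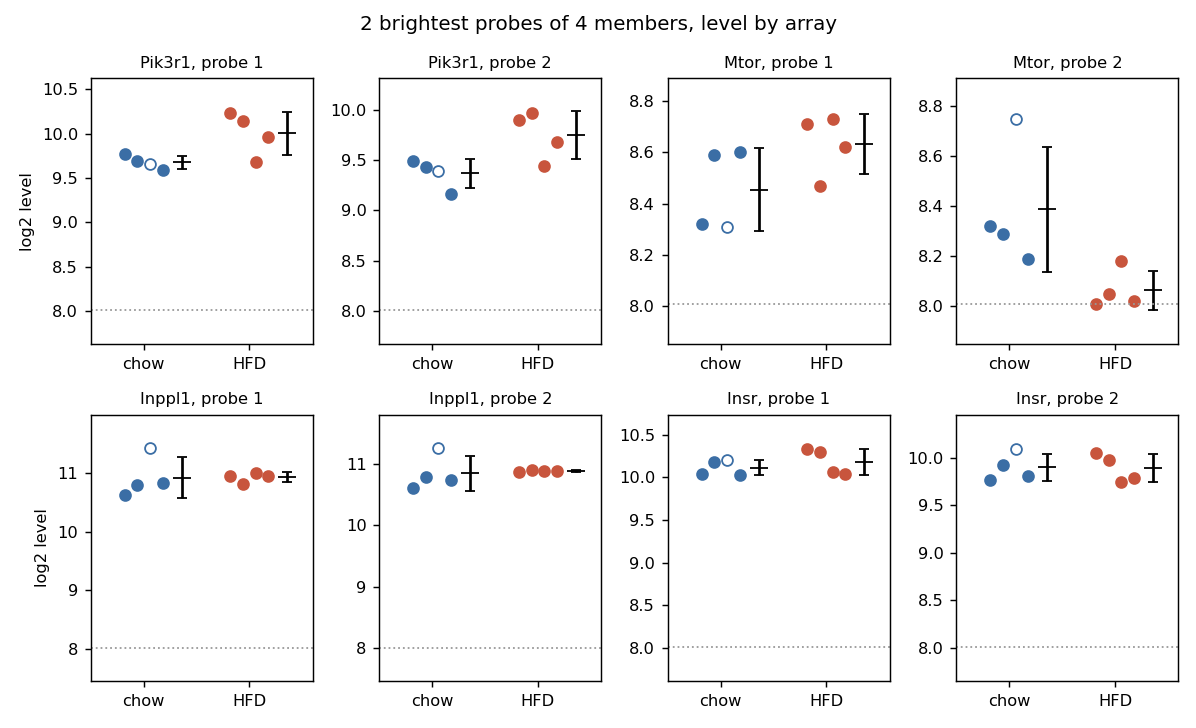
Log2 level on each array (vertical axis, a scale of its own in each panel) for the 2 brightest probes of Pik3r1, Mtor, Inppl1 and Insr in chow (blue) and HFD (red) cultures. Points are arrays, the open circle is chow array 3, bars are the mean ± SD of 4 arrays, and the dotted line is the limit of 8.01. HFD array 11 is the lowest HFD array on both probes of Pik3r1, chow array 3 the highest array on both of Inppl1, and the probes of Mtor shift in opposite directions.

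LKB1, encoded by Stk11, activates AMPK, an energy sensor that restrains mTOR and lipid synthesis. Of these 3 members 0 passed by limma, and 0 had an unadjusted p under 0.05. Stk11 was at 9.30, 9.40, 9.50 and 9.24 in chow and 9.24, 9.26, 9.25 and 9.34 in HFD cultures. The HFD arrays lay at the lower end of the chow range (difference -0.09, SE 0.057, 95% interval -0.22 to 0.04, adjusted p 0.610). Prkaa2, the AMPK alpha 2 subunit, was at 9.44, 9.38, 8.67 and 9.10 in chow and 9.52, 9.55, 9.60 and 9.28 in HFD cultures. Chow array 3 was the lowest and HFD array 12 fell within the chow range. The difference was 0.34 (SE 0.168, 95% interval -0.05 to 0.73, adjusted p 0.447) and 0.18 without chow array 3. Prkaa1, the alpha 1 subunit, was near background (difference -0.03, adjusted p 0.790).

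Beyond the members, 75 other genes of the same routes were listed, and 70 had a named probe. Of these, 4 passed (5.71%, against 4.04% of all genes), 2 higher and 2 lower, and 38 were near background. Their median difference was -0.0107, against -0.0046 over all genes. Without chow array 3 there were 8 (11.4%, against 9.17%), with Ptprf, Stradb, the class II kinase Pik3c2a (-0.28, adjusted p 0.0217) and the sestrin Sesn2 (0.27, adjusted p 0.0427) added. Sesn2 also passed without chow array 5 (0.44, adjusted p 0.0202).

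Of the 17 other mTOR genes, 6 of them near background, 3 passed (17.6% of the 17, dim genes included), where 4.04% of all genes passed. All 3 were above background, and among all genes not near background 10.1% passed. Rragd encodes RagD, one of the small GTPases that bring mTOR complex 1 to the lysosome when amino acids are present. Its level was 8.64, 8.69, 8.92 and 8.73 in chow and 8.15, 8.15, 8.18 and 8.26 in HFD cultures. The diets were well apart, and the difference of -0.56 (SE 0.062, 95% interval -0.70 to -0.42, adjusted p 0.00247) corresponds to 1.48-fold chow over HFD. The call held without each array in turn (adjusted p up to 0.0139). Rragc encodes RagC, its close relative, and was bright, at 11.90, 11.98, 12.03 and 11.99 in chow and 11.83, 11.86, 11.78 and 11.80 in HFD cultures. It also fell, by 0.15 on the log2 scale (SE 0.034, adjusted p 0.0492), and lost the call, with an adjusted p of at most 0.148, when chow array 2 or 5 or one of the HFD arrays was left out.

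Sesn1, a sestrin that restrains mTOR complex 1 when leucine is scarce, rose. Its level was 8.07, 8.01, 8.25 and 7.95 in chow and 8.42, 8.51, 8.39 and 8.45 in HFD cultures. All HFD arrays were above chow array 3, the highest chow array (difference 0.37, SE 0.065, 95% interval 0.22 to 0.52, adjusted p 0.0182). The call was lost without chow array 1 or 2 or HFD array 8, 10 or 12 (adjusted p up to 0.0678). Gab1, a docking adaptor that recruits PI3K and the phosphatase SHP2 and dampens insulin signalling in mouse liver, rose as well. It was at 8.82, 8.73, 9.16 and 8.85 in chow and 9.35, 9.33, 9.26 and 9.29 in HFD cultures. Chow array 3 was nearest to the HFD arrays. The difference was 0.41 (SE 0.086, adjusted p 0.0384), rose to 0.50 without chow array 3 (adjusted p 0.000229), and lost its call without any other single array (adjusted p up to 0.121).

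In the other lists no gene passed over the 8 arrays. Of the 13 phosphatases and feedback inhibitors, Ptprf, the receptor phosphatase LAR, was 8.26, 8.25, 7.49 and 8.28 in chow and 8.65, 8.54, 8.74 and 8.56 in HFD cultures. The diets did not overlap, and chow array 3 set the spread: the difference was 0.56 (SE 0.174, adjusted p 0.164) with it and 0.36 (SE 0.050, adjusted p 0.00314) without it. Trib3, an AKT-binding pseudokinase, differed by 0.29 (adjusted p 0.326). Among 11 AGC kinases and AKT substrates, Bad, a regulator of apoptosis, differed by 0.21 (adjusted p 0.175, and 0.0393 without chow array 5) and Sgk1, a glucocorticoid-induced kinase, by -0.34 (adjusted p 0.293). Among 9 further PI3K genes, Pik3c3 differed by -0.22 (adjusted p 0.359) and Pik3cg, a leukocyte isoform near background, by -0.10 (adjusted p 0.464). Of 9 further AMPK genes, the LKB1 partners Stradb and Strada differed by -0.41 (adjusted p 0.260) and 0.08 (adjusted p 0.307). Without chow array 3, Stradb differed by -0.24 and passed (adjusted p 0.0131).

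**Figure D4:**
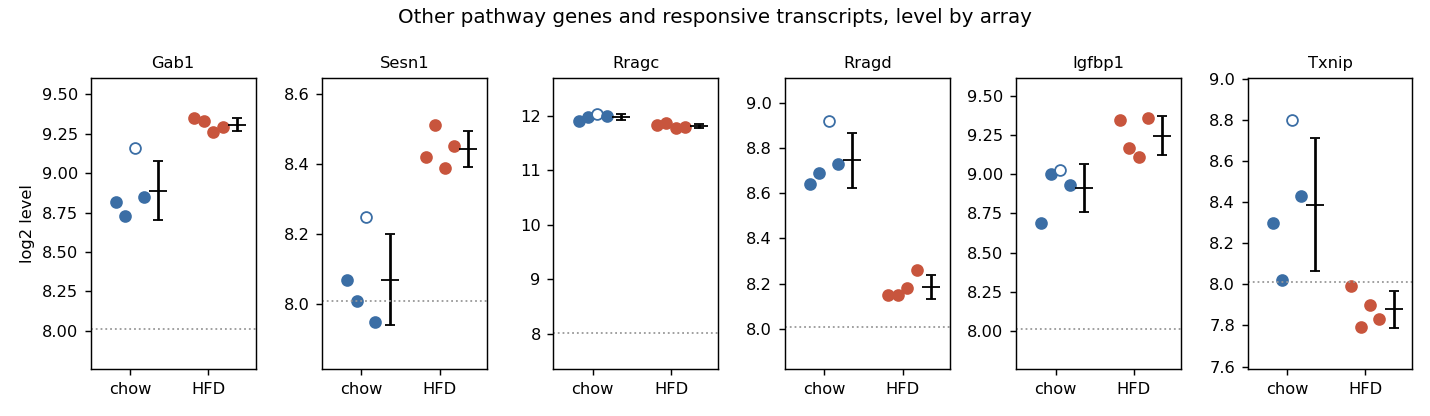
Log2 level on each array (vertical axis, a scale of its own in each panel) of Gab1, Sesn1, Rragc, Rragd, Igfbp1 and Txnip in chow (blue) and HFD (red) cultures. Points are arrays, the open circle is chow array 3, bars are the mean ± SD of 4 arrays, and the dotted line is the limit of 8.01. These 6 genes were picked by small p-values, and the diets do not overlap in any of them. That holds for 10 of the 70 other pathway genes, 3 of the 13 responsive transcripts and 10.7% of all genes. The HFD arrays are the higher ones for Gab1, Sesn1 and Igfbp1 and the lower ones for the rest.

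The last list held 14 transcripts known to respond to insulin or FOXO1, of which 13 were measured. None passed by limma (0 of 13, against 4.04% of all genes), and 9 were near background. At an unadjusted p under 0.05 there were 5, while 14.1% of all genes reached that level. These were Igfbp1, Txnip, Pdk4, Srebf1 and Pck1. Srebf1 (difference 0.19, adjusted p 0.199) and Pck1 (-0.08, adjusted p 0.338) were near background. The diets did not overlap in 3 of the 13, and in 10.7% of all genes. Igfbp1 encodes a binding protein of insulin-like growth factors that insulin represses through FOXO1. Its level was 8.69, 9.0, 9.03 and 8.93 in chow and 9.35, 9.17, 9.11 and 9.36 in HFD cultures. All HFD arrays lay above all chow arrays, HFD array 11 by little. The difference was 0.33 (SE 0.090, 95% interval 0.13 to 0.54, adjusted p 0.10), and 0.37 without chow array 3, where it passed (adjusted p 0.0343).

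Txnip, a thioredoxin-binding protein that glucose induces, was 8.30, 8.02, 8.80 and 8.43 in chow and 7.99, 7.79, 7.90 and 7.83 in HFD cultures. The diets did not overlap, with chow array 3 the highest. The difference was -0.51 (SE 0.148, adjusted p 0.128); it passed without chow array 2 (-0.63, adjusted p 0.0433) and without chow array 3 (-0.37, adjusted p 0.0434). Pdk4, a kinase that shuts off pyruvate dehydrogenase in fasting, is added here after its values were seen, as the largest difference of the list. It was 10.33, 10.23, 10.88 and 11.36 in chow and 10.21, 9.41, 9.87 and 9.72 in HFD cultures, a difference of -0.90 (SE 0.271, 95% interval -1.52 to -0.27, adjusted p 0.146). The diets did not overlap, though HFD array 8 came close to chow array 2.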

How the data were processed

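Levels are the log2 values the authors deposited, 45281 probes by 8 arrays (single-channel, Cy3), with 0 value columns left unused. Per the submitters' processing notes they used lumi (version and steps: not given in the sources used here). That the unit is log2 was judged from the range of the values. Sorted columns differed by at most 0.0026 from their mean, so the columns were already normalized to one distribution, which removes any shift shared by all genes. Whether the scale is plain log2 or variance-stabilised is unknown.

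Probes were named from the platform annotation, updated through gene numbers, accessions and older symbols: 35784 had 1 symbol, 0 several and 9497 none, giving 20289 genes. HFD was compared with chow by limma 3.58.1 (R 4.3.3; lmFit, eBayes, 2-sided, no covariate), with Benjamini-Hochberg adjustment over all genes and a threshold of 0.05, tested on simulated data. Pairs used exact permutation in Python 3.11.15. Figures were drawn with matplotlib 3.10.9. For arrays, their number limits the precision.

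The members, the gene lists and the tests were chosen with earlier results of these data known. All members are named; values on every array are given for each call, for the 2 smallest p-values of a role group without a call, and for a few more. Other pathway and responsive genes are named by the same rule. Exceptions are Pdk4, Srebf1, Pck1 and those that passed only without chow array 3. Promoters are from RefSeq (GRCm38.p6). Alternatives left out each array, or used array weights, a trended and robust variance, a second quantile normalization, filters on dim probes, a gene's mean over probes and, chosen after seeing the data, the annotation's own symbols.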

Additional observations from a re-analysis of the deposited data

Results flagged for a closer look

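In 98 groups of 4 arrays, 3 held an array far from the others, 3.06%, where chance gives about 1 in 20. The groups were the members and most of the other named pathway and responsive genes, by diet. Pdk4, Srebf1, Pck1, Sesn2 and Pik3c2a were not checked. Pdpk1 in chow cultures had array 5 at 9.01, with the nearest other array at 9.12. Gsk3b in chow cultures had array 1 at 9.02, with the nearest at 9.21; this array was the chow value closest to the HFD arrays. Ptprf in chow cultures had array 3 at 7.49, with the nearest at 8.25.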

How the results depend on the processing

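No paired analysis was possible because the arrays of the 2 diets share no replicate number. Leaving out each array in turn gave 447 to 1861 genes past the threshold (820 over all arrays), 0 to 3 members, 1 to 8 other pathway genes and 0 to 2 responsive transcripts. The members came to 0 without HFD array 10 and to 1 without chow array 2 or HFD array 12. Array weights gave 1603 genes, 7 other pathway genes and 1 responsive transcript (Igfbp1), and a trended and robust variance gave 1 responsive transcript (Txnip). Grb10 and Grb7 passed in every alternative that did not leave out an array. GTAAACA occurred in 0 members when only the 150 bases before the start were searched.

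Signs changed only in members and pairs that did not pass. Array weights gave 0.0131 for Grb2, 0.0472 for Grb14, -0.0047 for Gsk3a and -0.0756 for Rptor. The mean of a gene's probes gave -0.0434 for Igf1r, 0.026 for Grb14, -0.094 for Pdpk1, -0.0493 for Mtor, -0.0119 for Rptor, -0.0115 for Rictor, -0.1317 for Grb10 minus Grb7 and -0.0004 for Rptor minus Rictor. The annotation's own symbols gave -0.0264 for Igf1r. Leaving out 1 array turned the sign of these, with the range in each case: Igf1r -0.0187 to 0.0512, Irs1 -0.0109 to 0.0722, Shc1 -0.018 to 0.1326, Grb2 -0.0308 to 0.0279, Grb14 -0.1416 to 0.1209, Pik3ca -0.0305 to 0.0288, Inppl1 -0.0873 to 0.1766, Phlpp1 -0.063 to 0.0032, Pdpk1 -0.0441 to 0.0457, Gsk3a -0.0445 to 0.0766, Trib1 -0.0438 to 0.0079, Rptor -0.0795 to 0.1008, Rictor -0.072 to 0.1595, Insr minus Igf1r -0.0076 to 0.1342, Rptor minus Rictor -0.239 to 0.1668. For the mean of probes the dim probes of a gene enter its value; otherwise the cause was not tested. Signal over background limits Akt1, Akt2, Gsk3a, Irs1 and the other members near background.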
